A study of Mus musculus with 42 samples.

Results

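The receptors described here are the olfactory receptor genes next to the major histocompatibility complex (MHC) of the mouse. They were taken as the genes named Olfr plus a number in GENCODE release M21 that lie at chr17:36000000-39000000 of the GRCm38 genome. The annotation has 46 such genes, of which 44 were in the count table and are the members here; Olfr126 and Olfr761 were not analysed here. The table holds 44674 genes and 1170 olfactory receptors in all. The measurements are RNA-seq counts from the main olfactory epithelium of male C57BL/6NCrl mice, 8 to 12 weeks old, which were exposed for 1 h to no odour (5 pools) or to the odour of normal chow diet (NCD, 6 pools), of the bacon-flavoured diet made from it (BFD, 5 pools) or of the lard-based high-fat diet (HFDlard, 5 pools). Each of the 21 pools held the epithelia of 4 mice. Each gave an input library of the whole tissue and a pulldown library of ribosomes captured with an antibody to phosphorylated ribosomal protein S6 (pS6), 42 libraries in all. The labels number the pools as separate samples and give the strain as the whole genotype.

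Each mature olfactory sensory neuron expresses a single olfactory receptor gene, from which it reads odorants through a G protein, cyclic AMP and a cation channel. Neuronal activity leads to phosphorylation of S6, so the RNA of a receptor is enriched in the pS6 pulldown when the neurons that express it were active. The receptor genes beside the MHC are linked to it in many mammals, which has drawn attention to them in work on MHC and smell, and most have no odorant that is generally agreed upon.

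The 44 members spanned 1.25 Mb, from base 37083871 to base 38336643, with 22 genes on each strand. The median gap between neighbours was 17.2 kb, and the widest, 124 kb, separated a proximal block of 34 genes (37.08 to 37.93 Mb) from a distal block of 10 genes (38.05 to 38.34 Mb). The coding sequences were 918 to 1161 bases long, and the median identity over all pairs was 55.0%. However, 29 members fell into 9 groups of copies that were at least 90% identical to another member of the group, and 15 members had no such copy. The most numerous of these groups held Olfr118, Olfr119, Olfr120, Olfr121 and Olfr122, which lie one after another on the plus strand, and Olfr129 on the minus strand of the distal block. These 6 genes were 90.8% to 95.5% identical in coding sequence, and they hold the members with the clearest responses to odour. To show how the copies differ, 90 bases of coding sequence are given for each, from the reference annotation on GRCm38, 5′ to 3′ on the strand of the gene. Capitals mark the 24 positions at which the 6 genes are not the same in this stretch, the most variable one of its length without gaps.
Olfr118 (chr17:37672634-37672723, plus strand): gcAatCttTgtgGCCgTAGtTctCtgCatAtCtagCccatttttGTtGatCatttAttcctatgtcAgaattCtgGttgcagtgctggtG
Olfr119 (chr17:37701281-37701370, plus strand): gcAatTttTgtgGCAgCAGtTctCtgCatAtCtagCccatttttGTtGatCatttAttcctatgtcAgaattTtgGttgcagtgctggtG
Olfr120 (chr17:37726635-37726724, plus strand): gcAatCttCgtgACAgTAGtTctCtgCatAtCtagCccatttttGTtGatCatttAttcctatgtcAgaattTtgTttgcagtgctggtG
Olfr121 (chr17:37752465-37752554, plus strand): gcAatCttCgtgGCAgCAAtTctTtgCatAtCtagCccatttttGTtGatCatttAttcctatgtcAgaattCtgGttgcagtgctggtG
Olfr122 (chr17:37772264-37772353, plus strand): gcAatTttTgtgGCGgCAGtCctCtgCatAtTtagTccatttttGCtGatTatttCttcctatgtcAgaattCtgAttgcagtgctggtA
Olfr129 (chr17:38054866-38054955, minus strand): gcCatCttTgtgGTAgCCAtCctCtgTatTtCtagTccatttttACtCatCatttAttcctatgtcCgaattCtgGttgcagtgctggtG
Over the whole alignment of 993 columns, 189 differed in at least 1 gene, and the longest stretch that was the same in all 6 genes was 44 bases long (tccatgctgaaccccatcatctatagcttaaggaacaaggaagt, with no capitals because no position varies), shorter than a read of 75 bases. In this window Olfr122 carries its own letter at several positions where Olfr118 to Olfr121 are alike. The share of 31-base words of a gene's exons found in other genes was 18.2% for Olfr122, 28.9% for Olfr120 and 10.4% for Olfr129, compared with 37.6%, 38.7% and 48.5% for Olfr118, Olfr119 and Olfr121. Reads within such words do not identify their gene, so the counts of copies are estimates.

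The libraries held 24839555 to 36781553 counts, of which 2392 to 7094 came from the 44 members. The members took 3.70% to 4.37% of the counts of all receptors in the inputs and 4.33% to 4.94% in the pulldowns. Ribosomal RNA made up 23.9% ± 5.96 (SD, n = 5) of the counts in pulldowns without odour and 14.2% ± 3.06 (n = 16) in pulldowns with any odour, and 28.1% ± 4.21 against 14.5% ± 3.47 in the inputs; this difference ran along with every comparison of odour with no odour. The summed level of 13 markers of mature sensory neurons was 17714 to 21472 CPM (counts scaled to library size) in pulldowns without odour, compared with 23039 to 25939 for NCD, 19630 to 26771 for BFD and 21094 to 24087 for HFDlard, while all inputs lay between 16579 and 20750. The 7 markers of supporting cells summed to 5683 to 8786 CPM in the inputs and 1502 to 3586 CPM in the pulldowns. The 6 Bowman gland markers summed to 6114 to 8529 CPM in pulldowns without odour, 8152 to 9233 with NCD, 9013 to 13660 with BFD and 10393 to 12473 with HFDlard, compared with 5326 to 9438 CPM over all inputs. This sum rests on a few abundant genes, such as Muc5b (mean 3748 CPM in pulldowns without odour). The markers did not move together. By the edgeR test of the pulldown-to-input ratio, 2 were higher and 1 lower with each odour at an adjusted p under 0.001. The median log2 changes of the 6 ratios were −0.24, −0.29 and −0.22 with NCD, BFD and HFDlard. Their part in the receptor changes was not tested. The 5 erythroid genes summed to 323 to 719 CPM in the inputs and 1330 to 2866 CPM in the pulldowns. The vomeronasal markers, 4 of 5 in the table, summed to 388 to 525 CPM in the inputs and 570 to 787 CPM in the pulldowns. Nearly all of this was Gnao1 (322 CPM in inputs without odour) and Gnai2 (108 CPM), which other cells also express, while Trpc2, which defines vomeronasal neurons, was at 1.19 CPM and the receptor Vmn2r1 at 0.0921 CPM. In the pulldown of BFD replicate 1, genes departed less from the input than elsewhere (slope on the mean log2 ratio of the pools 0.473, compared with 0.691 to 1.23 in the other 20 pools), so the BFD values are also given without it where that matters.

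In the whole tissue most members were more abundant than the typical receptor. The level in the 21 inputs, in CPM per kilobase of exon, had a median of 0.559 over the members and 0.240 over all 1170 receptors, and 37 of the 44 members lay above the latter. Olfr110 was highest at 3.75 ± 0.88 (SD, n = 21), which placed it 36th of 1170 receptors. Olfr90 at 3.09 ± 0.401 (50th), Olfr131 at 2.30 ± 0.337 (70th) and Olfr129 at 2.04 ± 0.203 (87th) came next. The levels of Olfr110 and Olfr90 overlapped within their SDs. Olfr98 and Olfr108 were near the bottom (0.0756 and 0.0159) and had too few counts to be tested, so that 42 members entered the tests. In bulk tissue fewer cells of a type and less RNA per cell cannot be told apart, so these levels are not numbers of neurons.

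Without odour, the members tended towards the pulldown, with 11 higher and 3 lower at an adjusted p under 0.001 (edgeR quasi-likelihood test with a term for each pool, Benjamini-Hochberg over the 21168 genes tested). The same thresholds called 19.8% of all genes higher and 16.0% lower, and 12.0% and 10.4% of the 908 receptors tested. At an adjusted p under 0.05, 17 members were higher and 8 lower, when 31.0% and 28.5% of all genes and 19.1% and 26.3% of receptors were. The median log2 ratio of pulldown to input was 0.39 over the members, 0.01 over all genes and −0.19 over all receptors. All 5 pools lay above 0 for 15 members (28.2% of all genes, 18.0% of receptors) and below 0 for 7 (26.4% and 24.3%). Among the 15 members without a near-identical copy, 7 were higher, 0 were lower and the median was 0.81. Without no-odour replicate 2 the counts at 0.001 were 7 higher and 1 lower, without no-odour replicate 3 the lower count was 1, and with the share of ribosomal RNA in the fit they were 5 and 1.

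**Figure D1:**
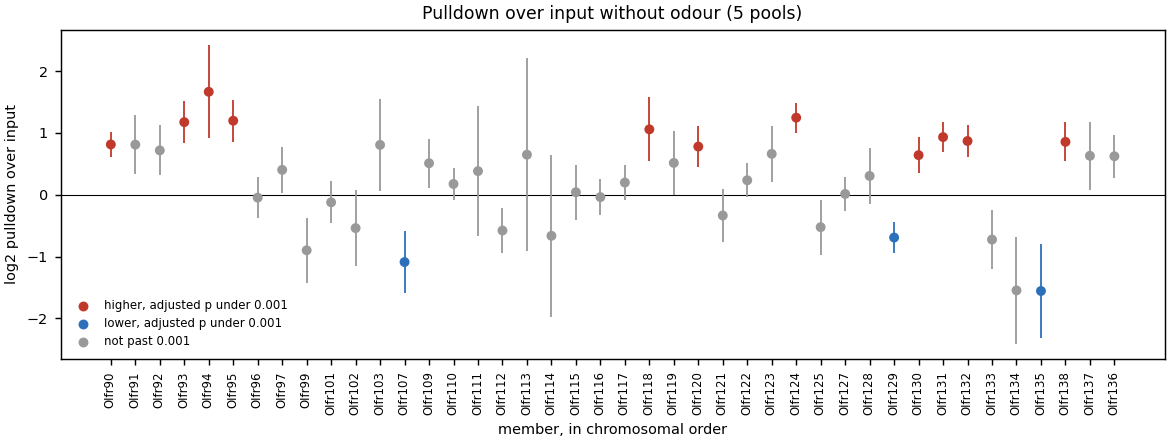
Fitted log2 ratio of pulldown to input (y axis) of the 42 tested members without odour (5 pools), in order along chromosome 17. Points are the ratios, bars their 95% intervals and colours the direction past an adjusted p of 0.001; Olfr94 at 1.67 and Olfr124 at 1.25 stand highest and Olfr135 at −1.56 lowest, with wide bars for Olfr94 and Olfr135.

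The 5 members with the highest ratios without odour came from the proximal block, which holds most of the members. The distal block had the higher median log2 ratio, 0.63 over 10 members compared with 0.34 over the 32 tested proximal members. At an adjusted p under 0.001, 4 distal and 7 proximal members were higher. Olfr94 gave log2 ratios of 2.06, 1.32, 2.04, 1.74 and 0.37 in the 5 pools, all above 0 although scattered, for a fitted ratio of 1.67 (SE 0.37, adjusted p = 3.6e-04) from only 0.271 ± 0.127 CPM in the inputs. Olfr124 rested on more reads, with 5.35 ± 0.756 CPM in the inputs and 12.7 ± 1.40 CPM in the pulldowns (SD, n = 5). Its log2 ratios were 1.11, 1.11, 1.57, 1.16 and 1.26. The fitted log2 ratio of Olfr124 was 1.25 (SE 0.12, adjusted p = 2.0e-09), with no pool near 0. Olfr95 (1.20, SE 0.16, adjusted p = 7.3e-07), Olfr93 (1.18, SE 0.17, adjusted p = 1.2e-06) and Olfr118 (1.06, SE 0.25, adjusted p = 7.8e-04) completed the 5 highest. The call was lost for Olfr118 in 14 of 29 alternative settings and for Olfr94 in 6 of 30. Olfr118 and its near-identical copies, summed, had a log2 ratio of −0.14 (SE 0.066, adjusted p = 0.076). Most input reads of that sum come from Olfr129, so it does not measure Olfr118 itself. Among the abundant members Olfr131 (0.93) and Olfr90 (0.81) were also higher in the pulldown.

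The 3 members past the threshold on the lower side were Olfr135, Olfr107 and Olfr129, of which Olfr135 lost that call in 22 of 29 alternative settings (adjusted p up to 0.0196) and Olfr107 in 5 of 29. Olfr135 gave log2 ratios of −2.74, −1.75, −1.18, −0.55 and −0.98, with a fitted ratio of −1.56 (SE 0.37, adjusted p = 8.5e-04). Its near-identical copies Olfr133 (−0.72) and Olfr134 (−1.55) were also lower, at an adjusted p under 0.05. Taken as a single gene by summing their counts, Olfr133, Olfr134 and Olfr135 had a log2 ratio of −1.15 (SE 0.19, adjusted p = 7.4e-06). Olfr107 (−1.09, SE 0.25, adjusted p = 4.6e-04) varied more between pools, from −2.64 to −0.15. In its near-identical group, Olfr99 had a log2 ratio of −0.90 and Olfr97 one of 0.40. The summed counts of that group gave −0.35 (SE 0.13, adjusted p = 0.021). Olfr129 was the most even of these 3 members, with −0.71, −0.62, −0.76, −0.68 and −0.66 and a fitted ratio of −0.69 (SE 0.12, adjusted p = 2.1e-05), while its copies Olfr118 and Olfr120 (0.78) lay on the other side of 0.

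Under each food odour the ratios of the members shifted upwards, as those of receptors in general did, and few members passed the threshold of the study. The 3 odours are compared with the same 5 pools without odour, so their results are not independent of each other. With NCD odour, 1 member was raised and 0 were lowered (0.359% of all genes and 1.87% of receptors raised); with BFD odour, 2 and 0 (2.47% and 3.74%); and with HFDlard odour, 2 and 0 (0.699% and 1.32%). At an adjusted p under 0.05 the numbers raised were 9, 9 and 10, against 6.79%, 12.0% and 7.67% of all genes and 10.2%, 13.1% and 10.5% of receptors, and again 0 were lowered (6.31%, 10.5% and 8.03% of all genes, and 0.661%, 0.771% and 0.771% of receptors). At an unadjusted p under 0.05, 14, 15 and 15 members were higher (13.9%, 17.2% and 14.4% of all genes), and 2 were lower with NCD (Olfr102 and Olfr128), 0 with BFD and 0 with HFDlard (14.0%, 16.4% and 15.2% of all genes). DESeq2 with the same design also lowered 0 at 0.05. With NCD, however, Olfr113 was lowered at 0.05 by DESeq2 with the input as offset, and Olfr128 without NCD replicate 1. The median log2 change of the members was 0.26 for NCD, 0.37 for BFD and 0.29 for HFDlard, beside 0.23, 0.29 and 0.27 over all receptors and close to 0 over all genes. When libraries were scaled on receptors alone, which moved the median of all genes by −0.24, −0.32 and −0.30, the medians of the members became 0.03, 0.06 and −0.004. With that scaling 3, 4 and 5 members were raised at 0.05, and 1 was lowered with each odour (Olfr128 with NCD, Olfr127 with BFD and HFDlard). With the share of ribosomal RNA in the fit, 0 members passed 0.001 with any odour and 1, 2 and 3 passed 0.05. Of the 42 members, 29, 31 and 34 had a change above 0. The summed pulldown level of all 44 members divided by their summed input level was 1.28 ± 0.046 (SD, n = 5) without odour, 1.65 ± 0.136 with NCD, 1.71 ± 0.181 with BFD and 1.70 ± 0.0814 with HFDlard, with the lowest odour pool at 1.40 and the highest no-odour pool at 1.33.

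**Figure D2:**
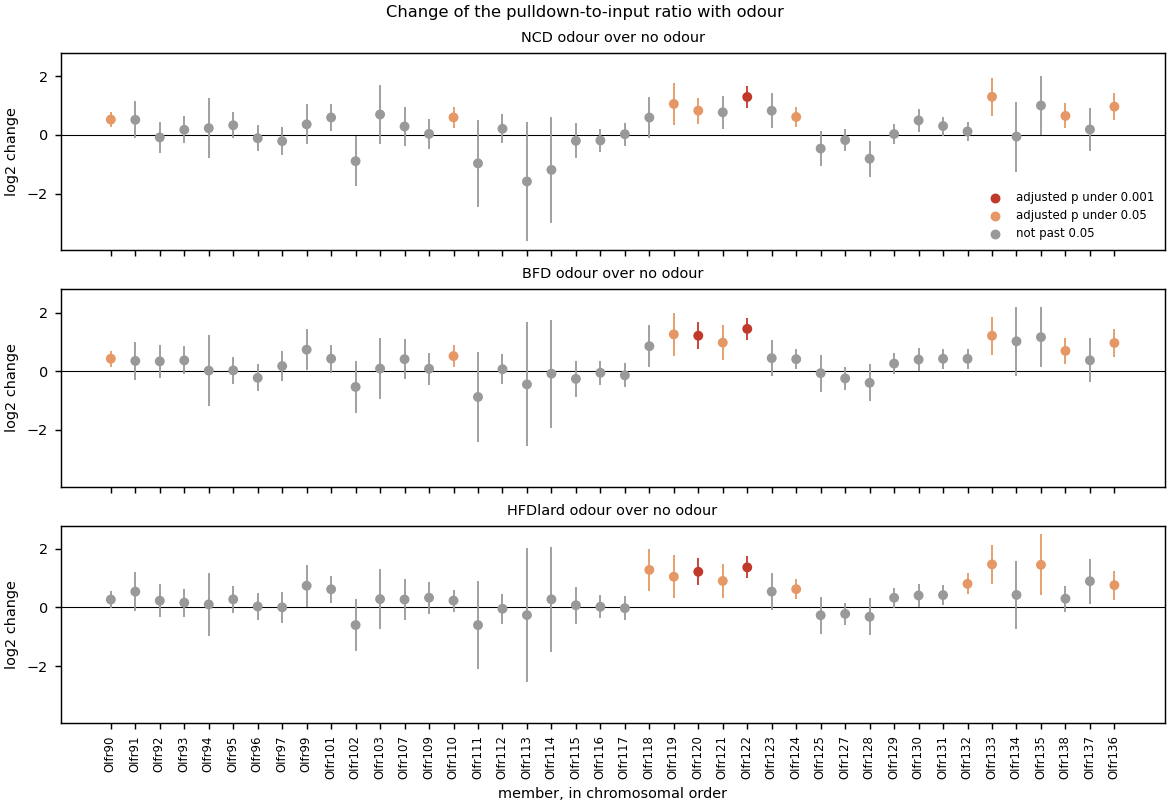
Fitted log2 change of the pulldown-to-input ratio with NCD, BFD and HFDlard odour over no odour for the 42 tested members, in order along the chromosome, with bars for the 95% interval; colours give the adjusted p. The members from Olfr118 to Olfr122 and those from Olfr133 to Olfr138 lie mostly above 0 for each odour, whereas Olfr129 stays within 0.33 of it.

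Olfr122 was the single member that passed the threshold for all 3 odours, as 3 receptors (0.33%) and 0.222% of all genes did. Its level in the pulldowns without odour was 2.45, 2.35, 2.40, 2.96 and 2.24 CPM. With NCD odour it was 3.86 to 7.43 CPM (median 4.95, n = 6), with BFD odour 3.79, 5.48, 6.16, 5.38 and 5.78 CPM, and with HFDlard odour 6.25, 6.21, 6.14, 5.42 and 5.42 CPM. Every pulldown with odour was thus above every pulldown without it, although the share of all genes with such a separation of pulldown levels was not computed. In the inputs Olfr122 stayed between 1.44 and 2.72 CPM, and the pools with and without odour overlapped. The log2 ratios of Olfr122 without odour were 0.28, 0.08, 0.22, 0.12 and 0.44. They were 0.96 to 1.81 with NCD (median 1.56), 1.32, 1.64, 1.78, 1.66 and 1.80 with BFD, and 1.58, 1.66, 1.54, 1.24 and 1.86 with HFDlard, again without overlap. The fitted log2 changes were 1.30 for NCD (SE 0.18, adjusted p = 4.8e-05), 1.44 for BFD (SE 0.18, adjusted p = 1.7e-05) and 1.37 for HFDlard (SE 0.18, adjusted p = 3.1e-05). By p-value Olfr122 stood 6th, 4th and 3rd among the 908 receptors, and by size of change 37th, 32nd and 42nd. With the share of ribosomal RNA added to the fit, the changes were 1.17, 1.32 and 1.22 and no longer passed 0.001 (adjusted p = 0.019, 0.0085 and 0.031).

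**Figure D3:**
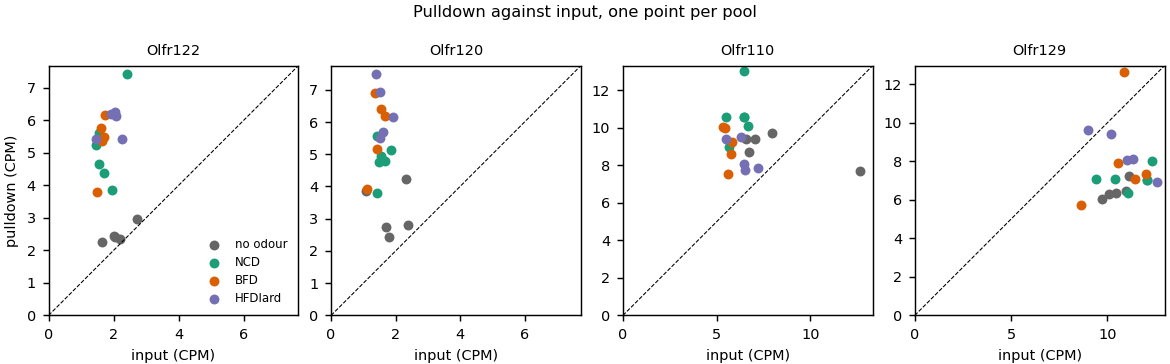
Pulldown level against input level, both in CPM, of Olfr122, Olfr120, Olfr110 and Olfr129 in each of the 21 pools, coloured by odour, with a dashed line where both are equal. The Olfr122 pulldowns with odour lie at 3.79 CPM or above and those without at 2.96 CPM or below, at input levels of 1.44 to 2.72 CPM.

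Its neighbour Olfr120 rose with BFD and HFDlard odour and reached the lower threshold of 0.05 with NCD. The log2 ratios of Olfr120 were 0.22, 1.77, 0.67, 0.86 and 0.42 without odour, and 1.76, 2.29, 2.02, 1.84 and 1.81 with BFD. They were 1.66, 2.38, 2.13, 1.77 and 1.82 with HFDlard and 1.37 to 1.90 with NCD (median 1.56). No-odour replicate 2, at 1.77, reached into the range of each odour, and the other 4 no-odour pools lay below all odour pools. The fitted changes were 0.83 for NCD (SE 0.22, adjusted p = 0.014), 1.21 for BFD (SE 0.23, adjusted p = 5.5e-04) and 1.21 for HFDlard (SE 0.23, adjusted p = 9.7e-04). The HFDlard call stood at the edge of the threshold and was lost in 22 of 30 alternative settings, the BFD call in 11 of 30.

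The other near-identical copies gave larger errors at lower counts. Olfr119, with a median of 23 input counts, changed by 1.06, 1.26 and 1.05 (SE 0.34 to 0.36) and passed 0.05 with each odour (adjusted p = 0.042, 0.013 and 0.046). Olfr121 passed 0.05 with BFD (0.97, adjusted p = 0.017) and HFDlard (0.90, adjusted p = 0.033) and had 0.77 with NCD (adjusted p = 0.062). Olfr118 passed with HFDlard (1.28, adjusted p = 0.016), where its ratios of 2.24, 2.18, 2.33, 2.19 and 2.02 lay above all no-odour pools (0.01 to 1.94), and had 0.60 with NCD and 0.85 with BFD (adjusted p = 0.26 and 0.083). Olfr129 had log2 changes of 0.03, 0.26 and 0.33 (SE 0.16 to 0.17, adjusted p = 0.925, 0.295 and 0.19). Its 95% intervals were −0.30 to 0.36, −0.09 to 0.60 and −0.01 to 0.67 and ended below the lower bounds for Olfr122 (0.93, 1.07 and 0.99), though the difference between both genes was not tested. Summed over the 6 copies, so that the division of reads between them has no effect, the change was 0.54 with NCD (SE 0.09, adjusted p = 5.1e-04), 0.79 with BFD (adjusted p = 4.4e-06) and 0.82 with HFDlard (adjusted p = 2.4e-06), and Olfr129 supplies most of the summed input reads.

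**Figure D4:**
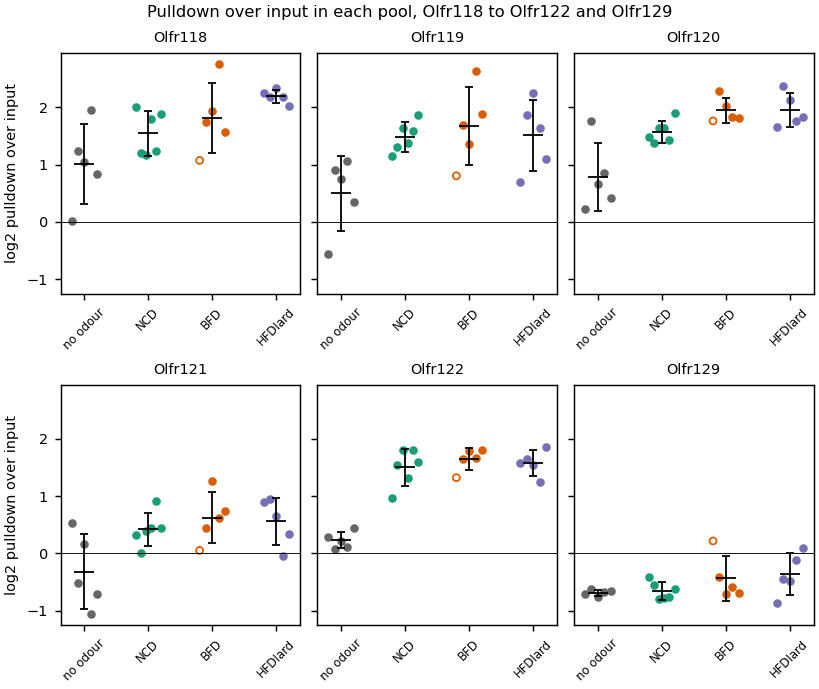
Log2 ratio of pulldown to input of the 6 near-identical copies Olfr118, Olfr119, Olfr120, Olfr121, Olfr122 and Olfr129 in each pool, by odour. Filled circles are pools, the open circle is BFD replicate 1, and black bars give the mean ± SD; Olfr122 separates without overlap from the no-odour pools for each odour, and Olfr129 stays near −0.69 with NCD.

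Among these copies, Olfr119 and Olfr122 have a RefSeq promoter entry close to the annotated start of the gene, and the bases before that start are shown for both. A link between these bases and the changes in the pulldown was not tested. The Olfr119 sequence of 129 bases lies at chr17:37696435-37696563 and the Olfr122 sequence of 215 bases at chr17:37768392-37768606 (GRCm38.p6, plus strand, RefSeq); capitals mark runs of at least 12 bases that are identical in both.
Olfr119 promoter: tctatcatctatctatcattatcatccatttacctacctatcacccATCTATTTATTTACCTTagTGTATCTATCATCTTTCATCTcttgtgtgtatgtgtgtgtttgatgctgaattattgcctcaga
Olfr122 promoter: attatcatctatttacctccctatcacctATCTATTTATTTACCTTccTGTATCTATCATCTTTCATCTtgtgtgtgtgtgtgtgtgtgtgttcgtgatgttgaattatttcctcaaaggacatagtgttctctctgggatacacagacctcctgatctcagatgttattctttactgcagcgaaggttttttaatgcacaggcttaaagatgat
Aligned to each other, 100 of 112 bases were identical (89.3%). The letters CCCNNGGG and TAATTA, searched on both strands because Olf1/EBF and homeodomain factors such as Lhx2 are known to act at olfactory receptor promoters, were not found in either RefSeq promoter window; 3.06% and 18.6% of 948 olfactory receptor promoters, and 13.7% and 5.29% of 32851 promoters of all genes, hold them. A match of one cannot overlap a match of the other. A RefSeq promoter was found for 35 members, but it began close to the annotated start for 5, so no comparison over the members was made.

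Olfr133 and Olfr136 of the distal block also passed 0.05 with all 3 odours, which with Olfr119, Olfr120 and Olfr122 makes 5 members (4.85% of receptors and 4.58% of all genes). Olfr133, lower in the pulldown without odour, gave log2 ratios of −1.13, −0.25, −0.20, −0.76 and −1.06 there. With odour it gave 0.13 to 1.12 with NCD (median 0.51), −0.21, 0.28, 0.48, 0.80 and 0.91 with BFD, and 0.99, 0.87, 0.08, 0.74 and 0.87 with HFDlard. Only BFD replicate 1, at −0.21, reached the range without odour. The fitted changes of Olfr133 were 1.30, 1.21 and 1.47 (SE 0.31 to 0.32, adjusted p = 0.0085, 0.0074 and 0.0033) on a median of 27 input counts. Its copy Olfr135 changed by 1.01, 1.16 and 1.45 and passed 0.05 with HFDlard (adjusted p = 0.0498). The remaining copy, Olfr134, changed by −0.05, 1.02 and 0.43 and did not pass 0.05 with any odour. The summed copies of this group gave 0.73, 1.14 and 1.15 (adjusted p = 0.049, 0.0020 and 0.0034). Olfr136 gave 0.78, 1.24, 0.20, 0.25 and 0.69 without odour, and its changes were 0.97, 0.96 and 0.76 (SE 0.23 to 0.24, adjusted p = 0.0079, 0.0048 and 0.031). Its copy Olfr138 passed with NCD (0.65, adjusted p = 0.039) and BFD (0.69, adjusted p = 0.021).

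**Figure D5:**
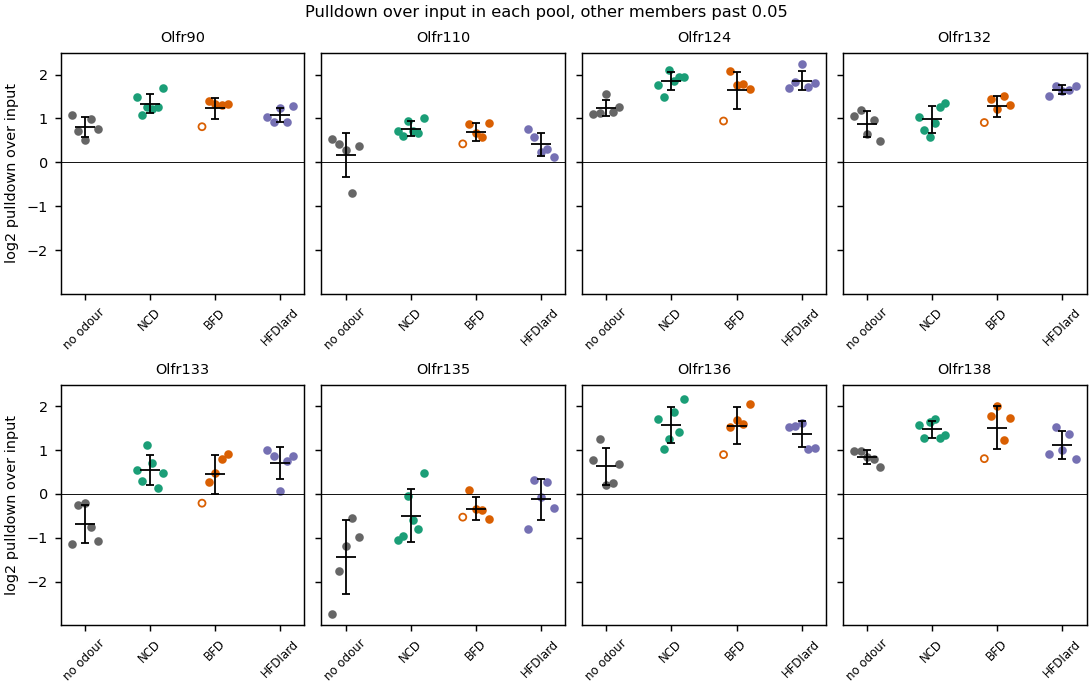
Log2 ratio of pulldown to input of Olfr90, Olfr110, Olfr124, Olfr132, Olfr133, Olfr135, Olfr136 and Olfr138 in each pool, by odour, with the open circle for BFD replicate 1 and black bars for the mean ± SD. Olfr132 lies at 1.50 to 1.75 with HFDlard and at 0.48 to 1.20 without odour, while its NCD pools overlap those without odour.

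The abundant members changed by less but with smaller errors. Olfr90 was at 16.3, 14.3, 12.9, 18.0 and 17.8 CPM in pulldowns without odour and at 20.5 to 28.1 CPM with NCD (median 25.9). With BFD it was at 17.6, 26.1, 29.6, 27.5 and 28.7 CPM, and with HFDlard at 19.0, 22.0, 20.2, 19.3 and 19.3 CPM. All pulldowns with NCD or HFDlard were above those without odour, as were those with BFD except replicate 1. The share of all genes with such a separation of pulldown levels was not computed. By the ratio to the input, the pools of Olfr90 separated from those without odour with NCD but not with BFD or HFDlard. Relative to the inputs its log2 change was 0.53 with NCD (SE 0.13, adjusted p = 0.0092), 0.43 with BFD (adjusted p = 0.021) and 0.27 with HFDlard (adjusted p = 0.18). Olfr124, already high in the pulldown without odour, changed by 0.62 with NCD (adjusted p = 0.013), 0.41 with BFD (adjusted p = 0.075) and 0.62 with HFDlard (adjusted p = 0.012).

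Olfr110 changed by 0.60 with NCD (SE 0.17, adjusted p = 0.024), 0.52 with BFD (adjusted p = 0.042) and 0.23 with HFDlard (adjusted p = 0.42). Its pulldown levels overlapped, at 7.72 to 9.73 CPM without odour and 8.99 to 13.0 CPM with NCD, and no-odour replicate 4 had an input of 12.6 CPM, compared with 6.54 to 7.97 CPM in the other 4. Olfr111, 98.1% identical to Olfr110 in coding sequence, had changes of −0.97, −0.88 and −0.60, not past an adjusted p of 0.05. Summed over both copies, the changes were 0.55 with NCD (adjusted p = 0.043), 0.46 with BFD (adjusted p = 0.081) and 0.19 with HFDlard (adjusted p = 0.54). Olfr132 passed 0.05 with HFDlard alone (0.80, SE 0.17, adjusted p = 0.0030). Its log2 ratios were 1.05, 1.20, 0.64, 0.98 and 0.48 without odour and 1.50, 1.73, 1.62, 1.65 and 1.75 with HFDlard, without overlap.

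Counted over pools, every pool with odour lay above every pool without it for 6 members with NCD (Olfr90, Olfr110, Olfr119, Olfr122, Olfr133 and Olfr138), for Olfr122 with BFD, and for 5 members with HFDlard (Olfr118, Olfr122, Olfr124, Olfr132 and Olfr133). The shares over all genes were 5.73%, 6.45% and 5.04%, and over receptors 7.16%, 7.05% and 8.7%. Without BFD replicate 1, Olfr120, Olfr122 and Olfr136 passed 0.001 with BFD, as 4.89% of all genes and 5.03% of receptors did, and the change of Olfr122 with BFD was 1.52. By position, the median log2 change over the 10 distal members was 0.40, 0.56 and 0.59 with NCD, BFD and HFDlard, with 9, 10 and 10 of them above 0, and over the 32 tested proximal members it was 0.22, 0.13 and 0.25; 7 of the 10 distal members belong to near-identical groups, so these are not separate observations.

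No member differed between odours at an adjusted p under 0.001 or 0.05 by edgeR, in any of the 3 pairs (0 of 42 in each). At 0.001, BFD over NCD called 0.00945% of all genes and 0.22% of receptors higher and 0.0% of both lower. HFDlard over NCD called 0.00472% and 0.11% higher and 0.0189% and 0.22% lower, and HFDlard over BFD 0.0% higher and 0.0378% and 0.551% lower. At 0.05 the shares of all genes called higher and lower were 0.0236% and 0.00472%, 0.0283% and 0.0425%, and 0.0142% and 0.0945% in the same order, and those of receptors were 0.551% and 0.0%, 0.22% and 0.551%, and 0.11% and 1.32%. DESeq2 with the same design also gave 0, whereas DESeq2 on the pulldowns with the input as offset called Olfr113 and Olfr132 higher with HFDlard than with NCD at 0.05 and 0 at 0.001. At an unadjusted p under 0.05 there were 0 for BFD over NCD, 3 for HFDlard over NCD (Olfr132 and Olfr137 up, Olfr110 down) and 1 for HFDlard over BFD (Olfr132 up). The shares of all genes higher and lower at that p were 3.69% and 3.55%, 2.38% and 2.24%, and 3.48% and 4.52%. Olfr132 was higher with HFDlard than with NCD by 0.68 on the log2 scale (95% interval 0.35 to 1.01, unadjusted p = 2.6e-04, adjusted p = 0.22), and all 5 HFDlard pools lay above the 6 NCD pools. The share of all genes with such a separation between these odours was not computed. For Olfr122 the odours differed by 0.15 (−0.21 to 0.50) for BFD over NCD, 0.07 (−0.28 to 0.42) for HFDlard over NCD and −0.08 (−0.44 to 0.28) for HFDlard over BFD.

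In the inputs, which share their libraries with the ratios above, 0 members changed at an adjusted p under 0.001 by edgeR (BFD called 5.41% of 20451 genes higher and 8.34% lower, NCD 0.572% and 0.425%, and HFDlard 0.636% and 0.328%). DESeq2 called 2 members, Olfr110 and Olfr95 with BFD. At an unadjusted p under 0.05, 1 member was higher and 6 lower with NCD, 2 and 6 with BFD, and 3 and 1 with HFDlard. The shares of all genes were 17.4% and 18.2%, 23.4% and 23.8%, and 17.5% and 17.4%. At an adjusted p under 0.05, 7 members changed with at least 1 odour, compared with 44.9% of all genes and 13.3% of receptors. The level of Olfr110 fell by 0.54 on the log2 scale with BFD (adjusted p = 0.0021) and by 0.40 with NCD (adjusted p = 0.024), and Olfr95 rose by 0.81 with BFD (adjusted p = 0.0022) and by 0.60 with HFDlard (adjusted p = 0.036). Olfr119 (−0.68) and Olfr131 (−0.37) fell and Olfr90 (0.27) rose with BFD, Olfr133 (−0.72) fell with NCD and Olfr127 (0.44) rose with HFDlard, all at an adjusted p of 0.013 to 0.047. The input level of Olfr119, Olfr133 and Olfr110 thus moved against their ratio with 1 or 2 odours. For Olfr122 the input changes were −0.25, −0.37 and −0.12 (adjusted p = 0.24, 0.068 and 0.64).

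The genes around the receptors and those of the signalling pathway were read in the same way. Of 40 other protein-coding genes in the window 18 were tested. Without odour 6 were higher in the pulldown and 1 lower at an adjusted p under 0.001 (19.8% and 16.0% of all genes). The largest ratios were those of Trim10 (2.57), Ubd (1.47) and the MHC class I gene H2-M2 (1.12), and the MHC class I gene H2-T23 (−0.48) was the lower one. With odour, 0, 1 and 0 of the 18 passed (Znrd1 with BFD, 0.69, adjusted p = 3.0e-04), when 0.359%, 2.47% and 0.699% of all genes were raised. The median changes of the 18 were 0.09, −0.01 and −0.06. In the inputs with BFD, 0 of the 18 were higher and 2 lower at 0.001, Znrd1 and Ppp1r11 (5.41% and 8.34% of all genes). The input level of Znrd1 thus moved against its ratio. Ubd, H2-M3 and H2-M2 lie among the receptors, and the other 15 tested genes lie before the first of them. Of 31 genes that act in receptor choice, receptor transport and odour transduction, 19 were higher and 1 lower in the pulldown without odour (19.8% and 16.0% of all genes). With NCD and HFDlard 0 of 31 passed, and with BFD the ratio of 2 was higher (2.47% of all genes). These were the olfactory G protein subunit gene Gng13 (1.33, adjusted p = 6.1e-04) and Omp, the marker of mature olfactory neurons (0.64, adjusted p = 1.9e-04). In the inputs with BFD, 3 of the 31 were higher and 4 lower at 0.001. Gng13 and Omp were among these, so their ratios with BFD rest on inputs that also changed.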

How the data were processed

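The authors prepared each pulldown and input library with an amplification kit that does not mark strand, ran the nf-core rnaseq pipeline and quantified genes with Salmon on GRCm38. The authors deposited these estimated counts per gene without normalization. Of these values 30.9% were not whole (tolerance 1e-06), since reads shared by similar genes are divided between them. The study's ratios and DESeq2 results were not used.

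Here the counts were rounded, genes were filtered with filterByExpr over the 8 groups (minimum count 10), and libraries were scaled by TMM. The edgeR 4.0.16 quasi-likelihood test (robust, R 4.3.3) was fitted to all 42 libraries with a term for each pool and a pulldown term for each odour, and the inputs were fitted apart. P-values were adjusted by Benjamini-Hochberg over all genes tested (21168 for the ratios, 20451 for the inputs), with the study's threshold of 0.001 and a looser one of 0.05. The spread gave a biological coefficient of variation of 12.0%. CPM values and log2 ratios per pool (prior count 2) use the same scaling. DESeq2 1.42.0 was an alternative, with the same design or with the input as an offset.

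The members and gene lists were chosen with earlier results of these data known. Named were the members past 0.05 for any odour, the 5 highest and 5 lowest past 0.001 without odour (3 were lower), the 3 most abundant in the inputs, and any past 0.001 in the inputs; members named elsewhere (the other copies of a group, Olfr129 among the levels, those past 0.05 in the inputs) were chosen after their values were seen. Genes were named from GENCODE M21, in which 556 of the 44674 identifiers, with 0.525% of the counts, have no entry. Since strand is not kept, reads of Olfr98 and its antisense neighbour Gm20429 cannot be told apart, nor those of Olfr115 and Olfr116 where they overlap. Pulldown and input of a pool come from the same animals; the correlation of their deviations from the group means had a median of 0.022 (−0.10 to 0.30). None of 90 pairs of libraries within a group were duplicates by a chi-square test (at least 3.19 per degree of freedom).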

Additional observations from a re-analysis of the deposited data

Results flagged for a closer look

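In 6 of the 72 groups of pools looked at, 1 pool stood far from the others of its group by Dixon's test, which by chance flags about 1 group in 20. All values are log2 ratios of pulldown to input. With HFDlard odour, Olfr133 in replicate 3 was at 0.075 when the other 4 pools were at 0.74 or above, Olfr124 in replicate 3 was at 2.24 when the next was at 1.83, Olfr95 in replicate 2 was at 1.12 when the next was at 1.48, and Olfr107 in replicate 1 was at −1.49 when the next was at −0.72. With BFD odour, Olfr90 in replicate 1 was at 0.81 when the next was at 1.31; this is the pool whose pulldown departed least from its input over all genes. Without odour, Olfr110 in replicate 4 was at −0.71 when the next was at 0.29, and its input level was 12.6 CPM.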

How the results depend on the processing

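At an adjusted p under 0.001 there were 11 members higher and 3 lower in the pulldown without odour, 1, 2 and 2 raised by NCD, BFD and HFDlard odour, and 0 lowered, differing between odours or changed in the inputs. Leaving out 1 pool at a time gave 7 to 11 higher and 1 to 3 lower, 1 raised by NCD, 1 to 3 by BFD and 1 to 2 by HFDlard, 0 lowered, 0 between odours and 0 to 1 in the inputs. The count for HFDlard was 1 without any single NCD or HFDlard pool, and the counts for BFD and HFDlard were both 1 without no-odour replicate 1, 3, 4 or 6 or BFD replicate 2, 3, 4 or 5; 1 member changed in the inputs without no-odour replicate 6 or HFDlard replicate 2. Scaling on receptors alone gave 1 for BFD, 1 for HFDlard and 1 in the inputs. Fitting the compared groups alone gave 6 higher, 1 lower, 1 for BFD and 1 for HFDlard. The share of ribosomal RNA as a covariate gave 5 higher, 1 lower and 0, 0 and 0 raised. DESeq2 with the same design gave 2 in the inputs, and with the input as offset 2 for NCD and 4 for HFDlard. Summing near-identical copies, an alternative added after seeing the data, gave 1 lower, 1 for BFD and 1 for HFDlard, from fewer features. At 0.05 there were 17 higher, 8 lower, 9, 9 and 10 raised and 7 in the inputs. The cause of these moves was not tested, and some of the settings also use fewer pools or features.

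Without the pool as replicate block, 11 members were higher, 2 lower and 1, 2 and 2 raised. With the replicate number as block they were 10, 3, 1, 2 and 2. Ratios of same-numbered pools of different odours correlated with a median of 0.020 (−0.21 to 0.11), against −0.0018 for differently numbered pools. Whether same-numbered pools also shared a batch was not tested. Of the values for single members under an alternative, 1134 were counted as kept, 83 no longer passed the threshold, 6 newly passed it, 2 moved and 0 reversed. For tested changes, kept meant the same direction and side of the threshold. For mean ratios under other prior counts, kept meant a shift smaller than the SD between pools, without regard to the threshold, and moved meant a larger one. Olfr122 passed 0.001 for each odour in 29 of 30 alternatives. The SD between pools of the log2 ratio had a median of 0.319 for the 23 members with 50 or more input counts and 0.544 for the other 19.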
